A study of Homo sapiens with 24 samples.

Results

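The MYC and MXD network was followed at the RNA level as 9 genes, chosen by gene symbol from all 34305 genes listed in the deposited tables. The members were MYC, MYCN and MYCL, their shared partner MAX, and the MAX-binding repressors MXD1, MXD3, MXD4, MXI1 and MNT. All 9 were found, and all 9 passed the filter on low counts in each comparison. RNA came from 2 forms of HEK293, a line of human embryonic kidney origin: cells labelled WT and a stable Klotho line (Kl). Klotho is the co-receptor through which FGF receptors bind the bone hormone FGF23. Recombinant human FGF23 was given to each line in a short arm (1 h, 0.5 nM) and a long arm (24 h, 10 nM). Each arm had its own libraries labelled control, which makes 8 groups of 3 libraries. Dose and time changed together, so the effects at 1 h and at 24 h differ in both. The labels give neither whether replicates were separate cultures, so that p-values measure the spread between these libraries only, nor whether the Kl cells were a clone or a pool.

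MYC proteins are basic helix-loop-helix leucine zipper factors that bind E-box DNA only when paired with MAX. Paired this way they activate genes of ribosome production, nucleotide synthesis and cell cycle entry. MXD proteins and MNT compete for MAX and recruit SIN3 and histone deacetylases to the same sites, where they repress. MYC RNA is short-lived and is a classical early target of growth factor signalling through ERK, whereas MXD1 and MXD4 are best known from cells that leave the cycle and differentiate.

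The smallest library held 15849564 counts and the largest 30446989. Counts of KL were 0 to 14 in WT libraries and 16072 to 54039 in Kl libraries. The ERK target EGR1 stood at 551 to 1000 CPM (counts divided by the library's total) in Kl cells after FGF23 for 1 h, against 4.16 to 5.99 CPM in their controls. All CPM of members are scaled by TMM factors instead. The same treated group varied most among its own libraries, with a median SD of 0.203 in log2 CPM over all genes against 0.079 to 0.115 in the 7 other groups. The labels call the cells kidney epithelial. Of 10 tubule markers 8 were listed in the tables, and they summed to 20.4 to 34.9 CPM. Their medians ran from 0 CPM (AQP2 and SLC12A3, with at most 2 counts in any library) to 4.35 for SLC34A3 and 18.4 for LRP2. Medians of the 8 epithelial markers ran from 0.667 CPM for CLDN4, 2.48 for CLDN3 and 7.26 for CDH1 to 114 for EPCAM and 501 for KRT8.

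In GRCh38 coordinates MYCN lies on chromosome 2 (15940564 to 15947007, plus strand) and MYCL on chromosome 1 (39895426 to 39902256, minus). MAX lies on chromosome 14 (65006174 to 65102695, minus). Among the repressors MXD1 lies on chromosome 2 (69897688 to 69942945, plus), MXD3 on chromosome 5 (177301461 to 177312757, minus) and MXD4 on chromosome 4 (2247432 to 2262294, minus). MXI1 lies on chromosome 10 (110207605 to 110287365, plus) and MNT on chromosome 17 (2384060 to 2401118, minus). Counts are per gene, so isoforms are not told apart.

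The promoter stretches of 3 repressors are shown because MXD4 and MXD1 were the repressors called after FGF23 in Kl cells, and because MXD4 and MNT carry a full E-box, the site that the network itself binds. Each is the 250 bases before the RefSeq transcription start in GRCh38.p14, written on the strand of the gene, with capitals for matches to CACGTG (E-box), GCGTGGGCG or GCGGGGGCG (EGR1), CCGGAAGT (ETS), TGACGTCA (CRE) and TGAGTCA (AP-1), searched on both strands.
MXD4, chr4:2262110-2262359, minus strand: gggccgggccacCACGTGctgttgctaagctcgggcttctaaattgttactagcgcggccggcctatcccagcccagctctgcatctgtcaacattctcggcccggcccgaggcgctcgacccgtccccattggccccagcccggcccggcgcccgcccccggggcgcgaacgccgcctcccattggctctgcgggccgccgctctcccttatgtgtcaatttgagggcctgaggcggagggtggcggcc
MNT, chr17:2401061-2401310, minus strand: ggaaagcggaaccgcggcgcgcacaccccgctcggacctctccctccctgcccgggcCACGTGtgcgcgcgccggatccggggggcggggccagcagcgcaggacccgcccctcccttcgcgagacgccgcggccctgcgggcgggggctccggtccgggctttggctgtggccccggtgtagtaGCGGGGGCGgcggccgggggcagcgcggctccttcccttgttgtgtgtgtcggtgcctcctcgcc
MXD1, chr2:69914859-69915108, plus strand: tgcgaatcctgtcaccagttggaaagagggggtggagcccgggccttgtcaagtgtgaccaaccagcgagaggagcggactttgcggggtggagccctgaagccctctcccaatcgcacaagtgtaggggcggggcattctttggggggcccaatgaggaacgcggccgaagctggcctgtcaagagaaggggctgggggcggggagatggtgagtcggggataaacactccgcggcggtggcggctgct
The E-box lies 238 bases before the start of MXD4 and 193 bases before that of MNT. These were the 2 members with an E-box among the 8 with a window. The 8 members have 11 windows, of which these 2 held an E-box, against 6.34% of all 35116 windows of this length. MNT also has an EGR1 match 65 bases before its start, a sequence found in 4.72% of windows. None of the 6 motifs occurred in the MXD1 stretch. The other matching member was MXD3, with an AP-1 sequence 79 bases before its start, found in 4.2% of windows. A match of letters is a description and shows no binding.

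Per kb of the deposited gene length, MXD4 was the most abundant transcript of the network in every library. Its level ran from 17.8 to 24.7 CPM per kb over the 24 libraries, with a median of 19.2. MXI1 followed with a median level of 10.7 CPM per kb (7.96 to 12.8) and MAX with 9.03 (7.44 to 9.57), and these 2 ranges overlap. The median level of MYC was 7.91 CPM per kb, but its range of 4.05 to 19.4 was the widest of the 9 and spans the levels of MAX and MXI1. In the Kl library with the most MYC, library 1 after FGF23 for 1 h, MYC stood at 19.4 and MXD4 at 24.7 CPM per kb.
MXD3, with a median level of 6.03 CPM per kb (4.29 to 6.83), overlapped MXD1 at 4.9 (3.78 to 5.95), which in turn overlapped MNT at 4.05 (3.13 to 5.05). MYCN at 3.14 CPM per kb (2.16 to 4.99) and MYCL at 1.77 (1.43 to 2.22) were the lowest. Thus each neighbouring pair in this order below MXD4 overlapped in range.

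**Figure D1:**
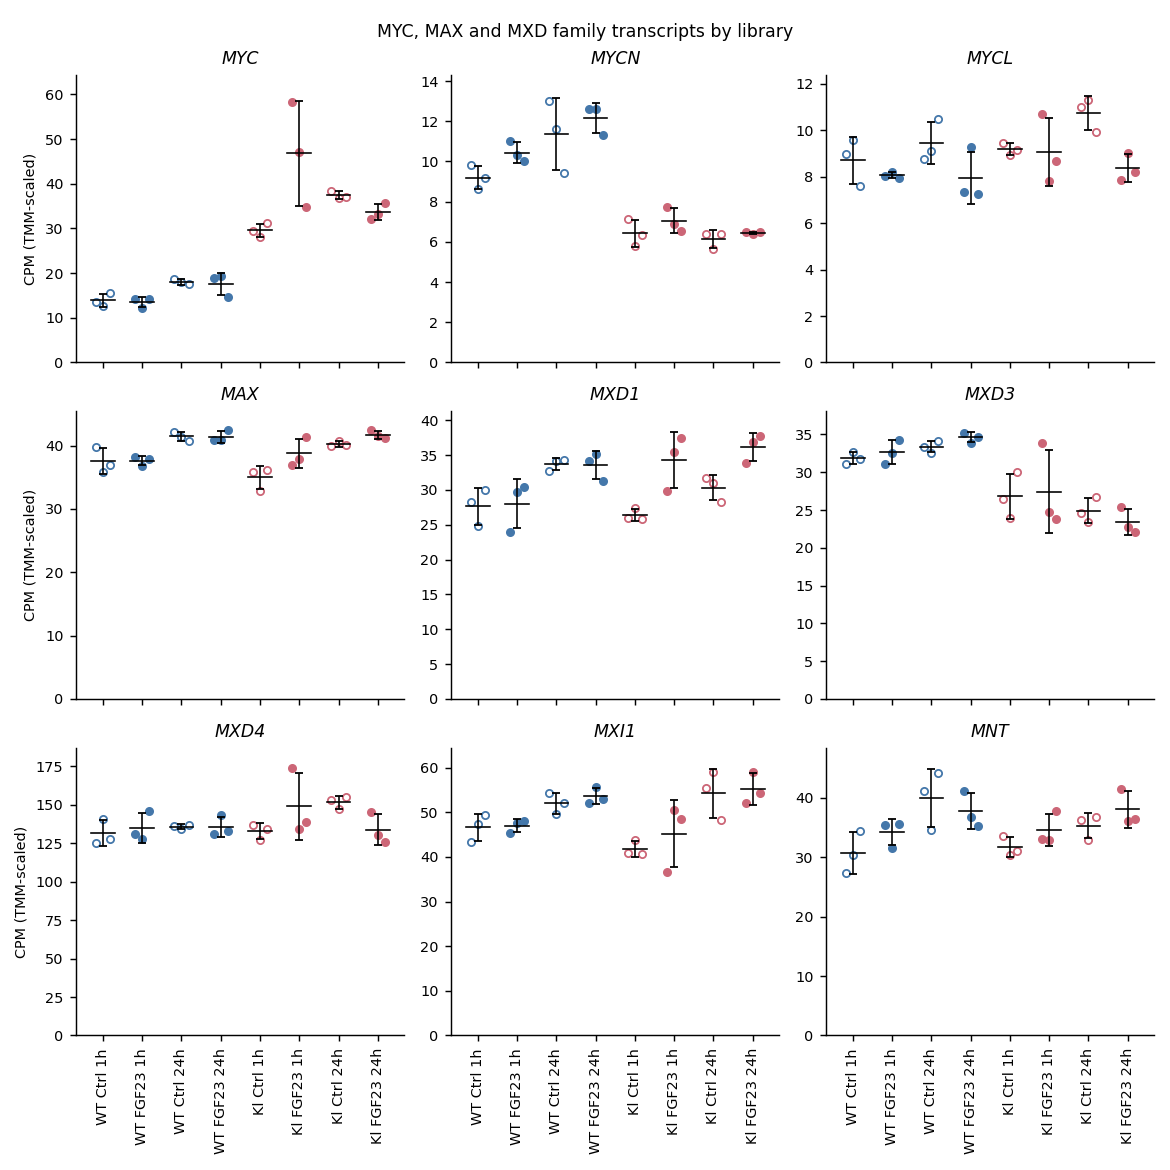
TMM-scaled CPM of each of the 9 genes (vertical axes, from 0) in the 24 libraries, by group; open points are control and filled points FGF23 libraries, WT in blue and Kl in red, with bars for the mean and SD of 3 libraries. MYC is higher in every Kl library than in every WT library, MYCN is lower in every Kl library, and the 3 Kl libraries given FGF23 for 1 h spread from 34.9 to 58.3 CPM of MYC.

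The supply of MYC family RNA relative to MXD and MNT RNA separated the lines. Summed per kb, MYC, MYCN and MYCL came to 9.91 ± 0.419 CPM per kb (SD, n = 3) in WT controls at 1 h and to 14.2 ± 0.666 in Kl controls at 1 h. At 24 h these sums were 12.2 ± 0.7 in WT controls and 17 ± 0.379 in Kl controls. The lowest Kl control library therefore lay above the highest WT control library at each time. MYC itself made up 42 to 50.7% of the family sum in WT libraries and 68.1 to 79.3% in Kl libraries. The sum of MXD1, MXD3, MXD4, MXI1 and MNT differed less, with 42.8 ± 1.77 CPM per kb in WT and 40.8 ± 0.781 in Kl controls at 1 h, and 46.9 ± 1.23 and 46.9 ± 0.702 at 24 h. The ratio of the sums was 0.231 ± 0.0166 in WT and 0.347 ± 0.0102 in Kl controls at 1 h. It reached 0.439 ± 0.0817 in Kl cells after FGF23 for 1 h, with libraries at 0.514, 0.451 and 0.352, the last of which lies within the range of the controls (0.335 to 0.354). At 24 h the ratio was 0.362 ± 0.00513 in Kl controls and 0.338 ± 0.0245 after FGF23, with the treated libraries at 0.314 to 0.363 and the controls at 0.356 to 0.366. In WT at 24 h it was 0.261 ± 0.0166 in controls and 0.257 ± 0.0214 after FGF23. In bulk RNA, fewer cells carrying a transcript and less of it per cell cannot be told apart, and these are RNA sums, not protein.

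**Figure D2:**
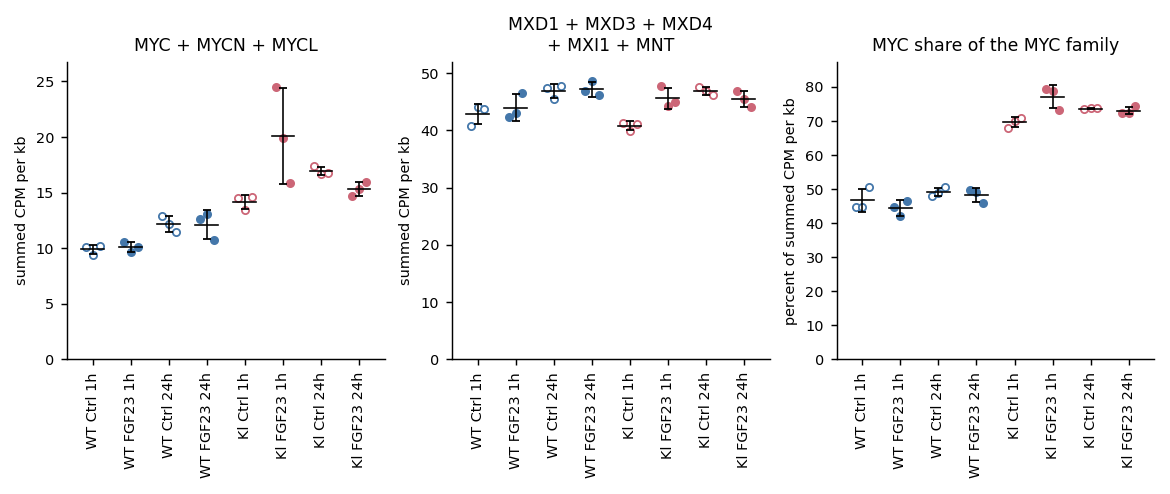
Left and middle, summed CPM per kb of the MYC family and of the MXD and MNT repressors in each library; right, the percentage of the MYC family sum that is MYC. Open points are controls, filled points FGF23, bars the mean and SD of 3 libraries; all Kl libraries exceed 68% MYC while no WT library exceeds 50.7%.

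FGF23 without Klotho left no member past the threshold. In WT cells at 1 h 0 of 9 members were called at an edgeR adjusted p under 0.05, 0 had an unadjusted p under 0.05, and DESeq2 and limma voom each called 0, beside 0% of all 16748 genes tested by edgeR (683 at an unadjusted p under 0.05). MYC stood at 13.6, 12.7 and 15.5 CPM in controls and at 14.2, 12.2 and 14.1 CPM after FGF23, and the groups overlap. Its log2 fold change was -0.04 ± 0.11 (SE). The largest values at 1 h were those of MYCN, best known from neuroblastoma, at 0.18 ± 0.11, and of MNT, the most broadly expressed repressor of the network, at 0.16 ± 0.08 with an unadjusted p of 0.0544. MYCN stood at 9.81, 8.63 and 9.16 CPM in controls and at 11, 10.3 and 10 CPM after FGF23. These MYCN groups did not overlap, although its unadjusted edgeR p was 0.132.
In WT cells at 24 h 0 of 9 members were called by edgeR, DESeq2 or voom, beside 0.666% of all genes, and 1 had an unadjusted p under 0.05. DESeq2 gave no adjusted p for 8 of the members in this comparison. MYCL, the family member first found in lung cancer, had that unadjusted p, 0.038, with 8.78, 9.09 and 10.5 CPM in controls and 7.33, 9.26 and 7.26 CPM after FGF23. Those groups overlap, the log2 fold change was -0.25 ± 0.12 and the edgeR adjusted p was 0.443. MYC at 24 h had 18.7, 17.9 and 17.5 CPM in controls and 18.8, 19.3 and 14.7 CPM in treated libraries, again overlapping.

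With Klotho, MYC and MXD1 were the members with the largest values after FGF23 for 1 h. In the edgeR fit without a block neither passed the threshold, while MYC passed with the replicate number as a block. Of 9 members 0 were called without a block, 2 had an unadjusted p under 0.05, DESeq2 called 1 and voom called 0, beside 0.554% of all genes in edgeR. MYC stood at 29.5, 28.1 and 31.1 CPM in Kl controls and at 58.3, 47.1 and 34.9 CPM in the treated libraries. All 3 treated libraries lay above all 3 controls, and library 1 had the most and library 3 the least. The log2 fold change was 0.66 ± 0.17, or 1.58-fold, with an edgeR adjusted p of 0.158.
That MYC value depends on how the spread is modelled. The edgeR adjusted p was 0.0442 with the replicate number as a block, a fit that called 176 of all genes where the fit without it called 90. It was 0.000661 with no filter on low counts and 0.000748 when all 24 libraries shared a spread. DESeq2 gave an adjusted p of 0.0142, and the authors' deposited table gives a log2 fold change of 0.665 with an adjusted p of 0.0132. Without treated library 3 the log2 fold change was 0.84 with an edgeR adjusted p of 0.0116.
MXD1, the repressor that takes over MAX as cells differentiate, had 25.9, 27.4 and 25.8 CPM in Kl controls and 29.8, 35.5 and 37.5 CPM after FGF23 for 1 h. Again no treated library fell within the controls, but here library 1 was the lowest and library 3 the highest, the reverse of the order for MYC. The log2 fold change was 0.38 ± 0.12 with an edgeR adjusted p of 0.385. It was 0.0125 when all 24 libraries shared a spread and 0.0211 without treated library 1. MXD1 did not pass with the replicate block. The other members had log2 fold changes between -0.02 (MYCL) and 0.18 (MXD4). MAX separated in the same way, at 35.9, 32.9 and 36.1 CPM in controls and 37, 37.9 and 41.4 CPM after FGF23. Its log2 fold change was 0.15 ± 0.11 with an edgeR adjusted p of 0.773. How many of all genes separate so at 1 h was not counted.
The difference between the lines in the effect of FGF23 at 1 h was tested directly, and 0 of 9 members were called by edgeR, DESeq2 or voom, beside 0.35% of all genes, with 2 at an unadjusted p under 0.05. For MYC the difference was 0.70 ± 0.21 on the log2 scale with an edgeR adjusted p of 0.421, and for MXD1 0.37 ± 0.16 with 0.859. The difference in MYC passed without Kl treated library 3 (edgeR adjusted p 0.0193) and with no filter (0.00638), but not with the replicate block.

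**Figure D3:**
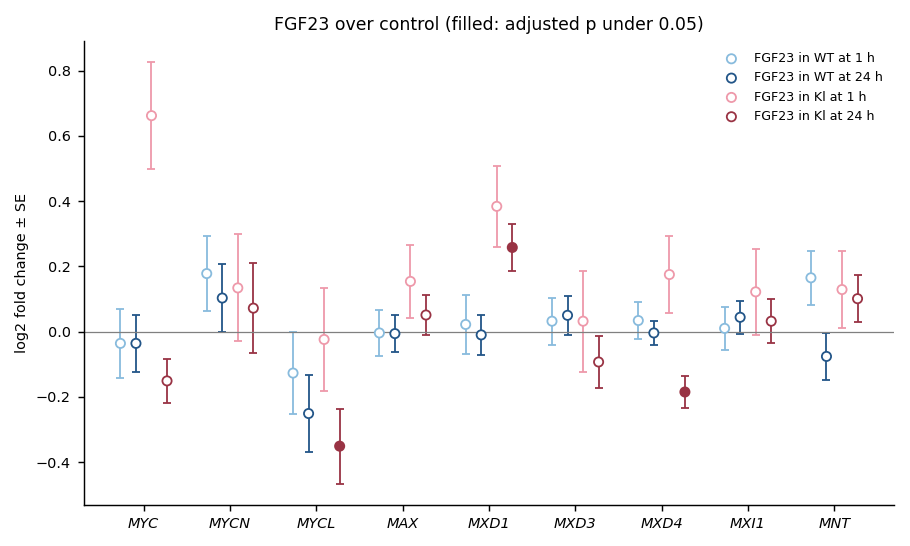
Log2 fold change of FGF23 over control for each member with its SE, in WT cells (blue) and Kl cells (red) at 1 h (light) and 24 h (dark). Filled points have an edgeR adjusted p under 0.05 in the fit without a block. Only MYCL, MXD1 and MXD4 in Kl cells at 24 h are filled, and MYC in Kl cells at 1 h has the largest value at 0.66.

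After 24 h of FGF23 at 10 nM in Kl cells 3 members passed, and each change was small. MXD1 rose, while MXD4 and MYCL fell, beside 19.3% of all genes called. MXD1 had 31.7, 31 and 28.3 CPM in controls and 33.9, 36.8 and 37.8 CPM after FGF23, with every treated library above every control. Its log2 fold change was 0.26 ± 0.07, or 1.2-fold (edgeR adjusted p = 0.0112).
MXD4, a repressor linked to withdrawal from the cell cycle, had 153, 147 and 155 CPM in controls and 145, 130 and 126 CPM after FGF23. All treated libraries lay below all controls, though the gap between the nearest libraries, 147 and 145 CPM, was narrow. The log2 fold change was -0.19 ± 0.05 (edgeR adjusted p = 0.00909).
MYCL had 11, 11.3 and 9.92 CPM in controls and 7.85, 9.04 and 8.22 CPM after FGF23, from 143 to 256 counts per library. These groups too did not overlap, and the log2 fold change was -0.35 ± 0.12 (edgeR adjusted p = 0.0313).
MYC had 38.4, 36.8 and 37.1 CPM in controls and 32, 33.3 and 35.7 CPM in treated libraries, and the groups did not overlap. It did not pass (log2 fold change -0.15 ± 0.07, edgeR adjusted p = 0.126). The value for MYC at 1 h was 0.66 and at 24 h -0.15, and the difference between these was not tested. The groups of MAX did not overlap either, at 39.9, 40.7 and 40.1 CPM in controls and 42.4, 41.5 and 41.2 CPM after FGF23. Its log2 fold change of 0.05 ± 0.06 did not pass, and MYCN, MXD3, MXI1 and MNT did not pass either. How many of all genes separate in this way, here or at 1 h, was not counted.
None of the 3 calls held in every alternative. With all 24 libraries in 1 fit the edgeR adjusted p was 0.0868 for MXD1, 0.141 for MXD4 and 0.0742 for MYCL, and DESeq2 gave 0.0599 for MYCL. MXD1 no longer passed without control library 3, treated library 2 or treated library 3 (edgeR adjusted p 0.054 to 0.088). MXD4 did not pass without control library 1 or 3 or treated library 2 or 3 (0.0501 to 0.0955), nor MYCL without control library 1 or 2 or treated library 1 or 3 (0.0603 to 0.106).

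Set against WT cells at 24 h, the effect of FGF23 in Kl cells differed for 1 of 9 members, beside 14.6% of all genes. MXD4 was that member, with a difference of -0.19 ± 0.06 on the log2 scale (edgeR adjusted p = 0.0343). In WT its libraries held 136, 134 and 137 CPM in controls and 131, 143 and 133 CPM after FGF23, a log2 fold change of 0.00 ± 0.04. That call was lost when any library but WT treated library 1, Kl control library 2 or Kl treated library 1 was left out (0.0507 to 0.158). MXD1 had a difference of 0.26 ± 0.09 that missed the threshold at an edgeR adjusted p of 0.0518. It passed without WT treated library 2, Kl control library 1 or Kl treated library 1 (0.0125 to 0.0429). For MYCL, called in Kl cells and not in WT cells, the difference between the lines was -0.10 ± 0.17 (edgeR adjusted p = 0.751).

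The clearest contrast of the network was between the lines themselves, before any FGF23. In Kl controls MYC was 2.14-fold higher than in WT controls at 1 h and 2.07-fold higher at 24 h, while MYCN was lower at both times. At 1 h 3 of 9 members were called beside 21.5% of all genes, and at 24 h 6 of 9 beside 41.1%. MYC stood at 13.6, 12.7 and 15.5 CPM in WT and 29.5, 28.1 and 31.1 CPM in Kl controls at 1 h. At 24 h it stood at 18.7, 17.9 and 17.5 CPM in WT and 38.4, 36.8 and 37.1 CPM in Kl. The groups lie far apart at both times, with log2 differences of 1.10 ± 0.10 (edgeR adjusted p = 2.87e-10) and 1.05 ± 0.07 (1.1e-17), and MYC passed in all 14 alternatives at each time.
MYCN stood at 9.81, 8.63 and 9.16 CPM in WT and 7.15, 5.81 and 6.33 CPM in Kl controls at 1 h, and 13, 11.6 and 9.45 CPM against 6.4, 5.63 and 6.39 CPM at 24 h. No Kl library reached a WT library. MYCN was lower by -0.52 ± 0.14 at 1 h (edgeR adjusted p = 0.00605) and by -0.89 ± 0.12 at 24 h (6.69e-08). The call at 1 h was lost without WT control library 1 (edgeR adjusted p = 0.0508), while that at 24 h passed in all 14 alternatives.
MXD3, a repressor known from proliferating cells, was lower in Kl controls as well, with 31.1, 32.7 and 31.8 CPM in WT against 26.4, 24 and 30 CPM in Kl at 1 h and with 33.4, 32.6 and 34.1 against 24.6, 23.4 and 26.7 CPM at 24 h. The log2 differences were -0.25 ± 0.09 (edgeR adjusted p = 0.0363) and -0.43 ± 0.07 (1.29e-06). The 1 h call was lost when any control library but Kl library 3 was left out (0.0607 to 0.22), and with all 24 libraries in 1 fit (0.0849). DESeq2 did not call MXD3 at 1 h either, so that it passed there in 7 of 14 alternatives. MXD3 shares 1158 exon bases with PRELID1 on the opposite strand and 926 with RAB24, and stranding is not stated, so that reads of these genes could be assigned between them. PRELID1 moved the other way at 24 h, by 0.42 ± 0.04, as did RAB24, by 0.34 ± 0.11.
At 24 h MXD4 was higher in Kl controls by 0.15 ± 0.04 (136, 134 and 137 against 153, 147 and 155 CPM, edgeR adjusted p = 0.000726), which was lost with all 24 libraries in 1 fit (0.142). The Kl controls of this comparison are also the baseline of the FGF23 effect at 24 h, so the higher control level and the lower level after FGF23 are not separate observations. MXD1 and MNT passed narrowly, lower by -0.16 ± 0.07 (edgeR adjusted p = 0.0496) and by -0.17 ± 0.07 (0.0484), and the MNT libraries overlap between lines. MXD1 was lost when any control library but Kl library 1 was left out (edgeR adjusted p 0.0575 to 0.225), and MNT without WT library 1 or 3 or Kl library 1 or 2 (0.072 to 0.358). MXD1 passed in 5 and MNT in 7 of 14 alternatives. DESeq2 gave adjusted p of 0.108 for MXD1 and 0.107 for MNT, and all 24 libraries in 1 edgeR fit gave adjusted p of 0.253 and 0.203. MXD1 was also lost with no filter (edgeR adjusted p = 0.105) and with RLE size factors (0.051), and MNT with voom (0.126). MAX and MYCL were not called at either time. MXI1 was called at 24 h only without Kl library 3 (0.0493).
The lines differ in Klotho and in every other way a stable line can come to differ, and these cannot be told apart. All 8 listed epithelial markers were found, and summed to 905 to 1130 CPM in WT and 556 to 731 CPM in Kl libraries. All 10 neuronal and adrenal markers were found, and summed to 343 to 388 and 272 to 332 CPM. The part of either in the difference of MYC was not tested. MYC lies on chromosome 8 (127735434 to 127741434, plus strand, GRCh38). Of the 30 genes tested within 5 Mb of it, none had a log2 difference as high as MYC at 24 h. Their median was 0.08 and the highest 0.55, and at 1 h the median of 29 such genes was 0.05. For MYCN on chromosome 2, the median of 27 genes within 5 Mb was 0.00 at 1 h and -0.03 at 24 h. Of these, 25 at 1 h and 26 at 24 h lay at or above MYCN. The lowest, at -2.33 and -2.56, lay further below 0 than MYCN itself.

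**Figure D4:**
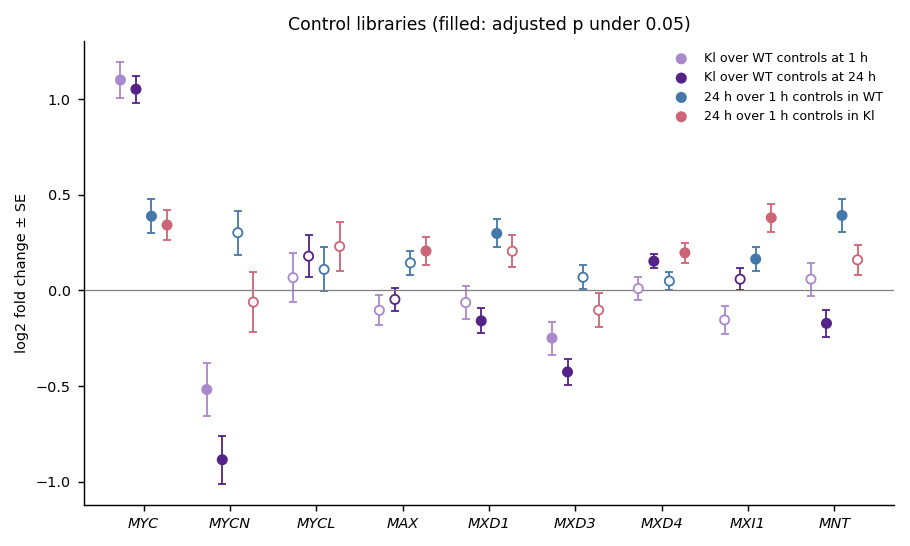
Log2 differences with SE for each member between Kl and WT controls at 1 h and 24 h (purple), and between 24 h and 1 h controls in WT (blue) and Kl (red); filled points have an edgeR adjusted p under 0.05. MYC lies at 1.10 and 1.05 between the lines, MYCN and MXD3 lie below 0 at both times, and every called difference between 24 h and 1 h controls is above 0.

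Controls collected for the 24 h arm carried more MYC than those for the 1 h arm in both lines. In WT 4 of 9 members were higher at 24 h and none lower, beside 25.9% of all genes called, and in Kl 4 of 9 were higher and none lower, beside 23.6%. The log2 difference of MYC was 0.39 ± 0.09 in WT (edgeR adjusted p = 0.00192) and 0.34 ± 0.08 in Kl (0.00119), and in both lines the libraries did not overlap. The libraries of MAX, MXD1 and MXI1 did not overlap in either line. Even so, MAX in WT (edgeR adjusted p = 0.0932) and MXD1 in Kl (0.0671) were not called. How many of all genes separate in this way was not counted. MXI1, the repressor first isolated as a MAX interactor, was higher by 0.16 ± 0.06 in WT (edgeR adjusted p = 0.0471) and by 0.38 ± 0.07 in Kl (0.000199). In Kl its libraries held 40.8, 43.8 and 40.6 CPM at 1 h and 55.5, 59 and 48.3 CPM at 24 h.
MNT and MXD1 were higher in WT, by 0.39 ± 0.09 (edgeR adjusted p = 0.00249) and 0.30 ± 0.07 (0.00302). MXD4 and MAX were higher in Kl, by 0.20 ± 0.05 (edgeR adjusted p = 0.00378) and 0.21 ± 0.08 (0.0421). The difference between the lines in these contrasts of 24 h and 1 h controls was not tested. All libraries of the 1 h arm carry labels beginning with A, and all of the 24 h arm labels beginning with B. Time therefore cannot be told apart from any other difference between these sets of libraries.
MXI1 in WT was lost without WT library 1 of 1 h or any WT library of 24 h (edgeR adjusted p 0.0602 to 0.268), and MAX in Kl without Kl library 1 or 2 of 1 h or any Kl library of 24 h (0.0625 to 0.186). Over all 14 alternatives, other settings included, MXI1 in WT passed in 6 and MAX in Kl in 7. MYCN in WT, not called (0.30 ± 0.12, edgeR adjusted p = 0.054), passed in 3 of 14 alternatives, among them without WT library 3 of 24 h (0.0177). With all 24 libraries in 1 fit MYC in Kl had an edgeR adjusted p of 0.0618 and MXD4 in Kl of 0.0933.

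Genes that MYC is known to activate were mostly higher in Kl than in WT controls at 24 h, and genes it is known to repress mostly lower. The activated list holds 70 genes, mostly of ribosome assembly, nucleotide synthesis and metabolism, and 14 genes make up a list of those it represses. Between Kl and WT controls at 24 h 53 of 69 tested activated targets were higher and 3 lower, 81.2% called against 41.1% of all genes, with a median log2 difference of 0.27 against -0.01 over all genes. Among those with the smallest p were HK2 (1.32 ± 0.06), the first enzyme of glycolysis, LDHA (0.64 ± 0.03), which makes lactate, SRM (0.57 ± 0.04), which makes spermidine, and NPM1 (0.44 ± 0.03), a nucleolar chaperone. SHMT2, a mitochondrial enzyme of serine use, went the other way by -0.61 ± 0.03, as did RCL1 and PLK1. Over the 14 alternatives the number higher was 44 to 53 and the median 0.21 to 0.27. Scaling by library size alone moves the calls over all genes from 3487 higher and 3270 lower to 2548 higher and 4218 lower.
At 1 h 13 of 69 activated targets were higher and 8 lower in Kl controls, 30.4% called against 21.5% of all genes, with a median of 0.05. TFRC, the transferrin receptor, and CDK4, a kinase of cell cycle entry, were among the higher at 0.34 ± 0.05 and 0.26 ± 0.06. TERT, the telomerase subunit, was higher by 0.70 ± 0.18. NOP56, a ribosomal RNA processing factor, was lower by -0.29 ± 0.05.
Of 13 tested repressed targets none was called higher in Kl controls at either time. At 1 h 7 were lower, 53.8% called against 21.5% of all genes, with a median of -0.305. At 24 h 11 were lower, 84.6% called against 41.1%, with a median of -0.292, and 2 had a difference above 0 that was not called. Over the 14 alternatives at 24 h the number lower was 7 to 11 and the number higher 0 to 1. The cell cycle inhibitors CDKN1A and CDKN2B were lower at 24 h by -0.56 ± 0.04 and -0.41 ± 0.05, and the stress factor DDIT3 by -0.99 ± 0.10. FTH1, the iron store subunit, and GADD45A, a growth arrest gene, were lower by -0.23 ± 0.03 and -0.29 ± 0.05.

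**Figure D5:**
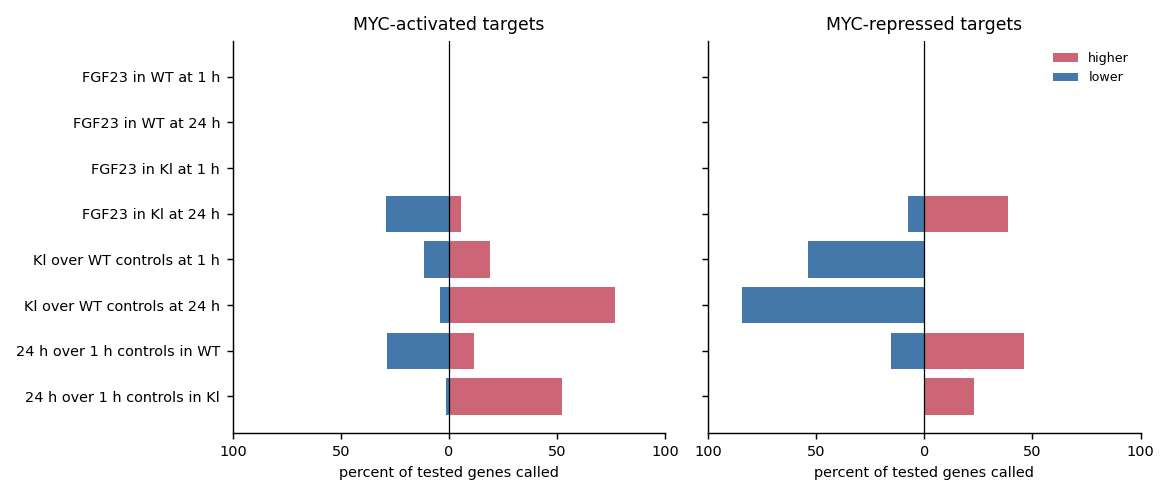
Percentage of tested genes called higher (red, to the right of 0) and lower (blue, to the left) at an edgeR adjusted p under 0.05, for the MYC-activated list (left) and the MYC-repressed list (right) in the 8 comparisons of a pair of groups. Activated targets are mostly higher and repressed targets mostly lower in Kl than in WT controls at 24 h, and the 3 uppermost comparisons have no calls.

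After FGF23 in Kl cells for 24 h more activated targets were lower than higher, while at 1 h the calls depended on the fit. At 1 h 0 of 70 activated and 0 of 13 repressed targets were called by edgeR without a block, beside 0.554% of all genes. At an unadjusted p under 0.05 there were 9 and 10, beside 1277 of all 16250 genes. The lists had medians of 0.12 and 0.43 on the log2 scale against -0.01 over all genes. With the replicate block edgeR called 0 activated and 2 repressed targets, beside 176 of all 16250 genes. With no filter it called 1 of 70 and 4 of 14, beside 236 of 28934. With all 24 libraries in 1 fit it called 8 of 70 and 8 of 13, beside 859 of 17790. All these targets were higher, as were 167 of the 176, 223 of the 236 and 693 of the 859 genes. DESeq2 called 0 and 2 and voom 0 and 1, also higher, beside 181 and 119 of all genes. At 24 h 4 of 69 activated targets were higher and 20 lower, 34.8% called against 19.3% of all genes, with a median of -0.07. SHMT2 rose by 0.94 ± 0.04 and CCND2, a cyclin of G1, by 0.40 ± 0.06. LDHA fell by 0.31 ± 0.04, HK2 by 0.42 ± 0.06, DCTPP1, a nucleotide pyrophosphatase, by 0.44 ± 0.05 and CAD, which starts pyrimidine synthesis, by 0.24 ± 0.04. The Kl controls enter both this comparison and that between the lines at 24 h. With all 24 libraries in 1 fit 7 activated targets were lower rather than 20.
Of 13 repressed targets 5 rose after 24 h (NDRG1 by 0.50 ± 0.06, THBS1 by 0.69 ± 0.16, DDIT3 by 0.55 ± 0.12, CDKN2B by 0.32 ± 0.06 and FTH1 by 0.30 ± 0.04). NDRG2 fell by 0.51 ± 0.07. The share called was 46.2% against 19.3% of all genes. The median of the list was 0.044 on the log2 scale against -0.002 over all genes.
In WT cells 0 activated and 0 repressed targets were called at either time by edgeR, DESeq2 or voom. The share of all genes called by edgeR was 0% at 1 h and 0.666% at 24 h. At an unadjusted p under 0.05 edgeR had 4 of 69 activated and 0 of 13 repressed targets at 1 h, beside 683 of all 16748 genes. At 24 h it had 13 of 70 and 2 of 13, beside 1721 of all 16663 genes.

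Between 24 h and 1 h controls the activated targets were mostly higher at 24 h in Kl, while in WT more were lower than higher, a difference between the lines that was not tested. In Kl 36 of 69 were higher and 1 lower, 53.6% called against 23.6% of all genes, with a median of 0.17, among them PPRC1 (0.46 ± 0.06) and MYBBP1A (0.44 ± 0.05). In WT 8 of 70 were higher and 20 lower, 40% called against 25.9%, with a median of -0.05, among them HSPE1 (-0.59 ± 0.07), a mitochondrial chaperonin, and GNL3 (-0.44 ± 0.05), a nucleolar GTPase. The WT counts were 4 higher and 10 lower with all 24 libraries in 1 fit, and 12 higher and 16 lower with library size only. MYC RNA was higher at 24 h in both lines. Time and the set of libraries cannot be told apart in these contrasts either.

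Among 26 cofactors and turnover factors of MYC, 1 was called after FGF23 for 1 h in Kl cells, 3.85% against 0.554% of all genes. This was PIM1, a kinase that phosphorylates MYC and MYC-bound chromatin, at 0.83 ± 0.13 (edgeR adjusted p = 0.00867) at 1 h and 0.47 ± 0.06 (2.05e-06) at 24 h. The count at 1 h was 0 without any 1 of the 3 Kl control libraries, and 2 with all 24 libraries in 1 fit. At 24 h 3 of 26 were higher and 3 lower in Kl, 23.1% called against 19.3% of all genes. HCFC1, a MYC-binding host cell factor, rose by 0.13 ± 0.04. HNRNPD, an RNA-binding protein, fell by 0.21 ± 0.06, the acetyltransferase KAT2A by 0.17 ± 0.05 and the ATPase RUVBL1 by 0.18 ± 0.05. TRRAP, the scaffold of histone acetyltransferases that MYC recruits, rose by 0.18 ± 0.05 in Kl at 24 h and fell by 0.21 ± 0.03 in WT at 24 h. In WT the ubiquitin ligase HUWE1 fell by 0.16 ± 0.03, and EP400, HCFC1 and IGF2BP1 also fell, 5 of 26 in all against 0.666% of all genes. Over the 14 alternatives of that comparison the number lower was 0 to 6.
Of 15 corepressors of MXD and MNT, 6 rose and 1 fell after FGF23 at 24 h in Kl cells, 46.7% called against 19.3% of all genes. The rises were small, with NCOR1 at 0.20 ± 0.04, SIN3A, the scaffold that MXD proteins bind, at 0.15 ± 0.05, and ING1 at 0.30 ± 0.08, and RBBP4 fell by 0.12 ± 0.04. The number that rose was 1 to 6 over the 14 alternatives. These lists were chosen with earlier results of the data known and are described by their counts alone.

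Over the 24 libraries, which fall into the WT and Kl lines and share their scaling, the genes whose log2 CPM followed MYC most closely were MDH2, ULK2, HOXA5, EIF4EBP2 and CCDC78, with Pearson r of 0.942, 0.94, 0.939, 0.937 and 0.934 among 11863 candidates. NEURL1B, CPNE1 and CTNND2 were most like MYCN (0.939, 0.935 and 0.934), and LAMB2, MAN1B1 and CRTAC1 most like MXD3 (0.95, 0.943 and 0.942). For MXD1 the closest were MEX3C, PPP1R15B and PNRC1 (0.885, 0.827 and 0.818), and for MYCL, whose range was narrow, ALKBH5 reached 0.755. These are descriptions over libraries of 2 lines, with no test.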

How the data were processed

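RNA-seq of 24 libraries was used as 4 deposited tables, each with raw counts of 6 libraries. Per the file headers the authors give raw gene counts, gene length, a log2 fold change and a p-value before and after adjustment. Their aligner, counter and test are not given in the sources used here. The submitters' processing notes name mm10, whereas all 34305 gene IDs have human GRCh38 coordinates as in GENCODE release 29. Genes absent from a table were taken as 0 (at most 30 counts elsewhere).

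Each comparison was fitted with edgeR 4.0.16 (TMM, filterByExpr, robust quasi-likelihood, Benjamini-Hochberg over all genes tested) to the libraries of its own groups, and called at an adjusted p under 0.05. Levels are CPM with TMM factors over 24 libraries and 17790 genes. SE is the log2 fold change over the root of the quasi-likelihood F. Alternatives were RLE, library size only, no filter on low counts, DESeq2 1.42.0, a filter of 1 CPM in 3 or more libraries, limma 3.58.1 voom with a spread for each group, all 24 libraries in 1 fit, the replicate block and each library left out. The code was tested on simulated data. R 4.3.3, Python 3.11.15 and matplotlib 3.10.9 were used.

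Replicate numbers come from the sample titles. Deviations of same-numbered treated and control libraries from their group means correlated by 0.1 to 0.183 in Kl at 1 h, narrowly over 0.1 in all 3 pairs, so the blocked value stands beside the result there. The members, lists and tests were chosen with earlier results of these data known. The text names all 9 members, from each list up to 6 called genes with the smallest p in each direction, and the 3 genes (5 for MYC) most like a member. Precision is given as the SD or SE of 3 libraries per group.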

Additional observations from a re-analysis of the deposited data

Results flagged for a closer look

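MXD4 differed between the lines in its response to FGF23 at 24 h, by -0.186 on the log2 scale (Kl minus WT, SE 0.062, edgeR adjusted p = 0.0343), in a direct test of that difference. It was the 1 of 9 members called, 11.1% against 14.6% of all genes. In Kl cells 3 of 3 treated libraries lay below all controls, whereas in WT the groups overlapped. How many of all genes separate in this way was not counted. Mean levels of MXD4 at 24 h were 151 CPM in Kl controls and 133 after FGF23, against 136 and 136 CPM in WT. The call was lost without any of 9 of the 12 libraries, with an edgeR adjusted p of up to 0.158, and with all 24 libraries in 1 fit (0.43).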

How the results depend on the processing

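The direction of each called member was kept in all alternatives. Of the values per member and setting, leaving out single libraries aside, 677 kept their side of the threshold, 12 gained a call and 23 lost it. For FGF23 in Kl at 1 h, where 0 members passed, 1 passed with no filter, with DESeq2 and with the replicate block, 2 with all 24 libraries in 1 fit, and 0 to 1 when 1 library was left out. For FGF23 in Kl at 24 h, 3 became 0 with all 24 libraries and 0 to 2 when 1 library was left out. The difference between the lines at 1 h went from 0 to 1 with no filter and ran from 0 to 1 when 1 library was left out. That at 24 h, 1 in the fit reported, was 2 with a filter of CPM 1 in 3 libraries, 2 with voom, 0 with all 24 libraries and 0 to 2 when 1 library was left out. Between controls of the lines, 3 at 1 h became 1 to 3 when 1 library was left out, 1 without WT library 1, and 2 with DESeq2 or all 24 libraries. At 24 h 6 became 5 with RLE, no filter or voom, 4 with DESeq2 and 3 with all 24 libraries. For 24 h over 1 h controls in Kl, 4 became 2 with all 24 libraries. The cause was not tested.

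Among all genes, the calls for FGF23 in Kl at 1 h were 90 in the fit reported, 236 with no filter, 181 with DESeq2, 176 with the replicate block, 859 with all 24 libraries, and 40 to 163 when 1 library was left out. For FGF23 in WT at 24 h 111 became 0 with all 24 libraries, and 29 (without treated library 3) to 389 (without treated library 2). For Kl at 24 h 3128 became 1524 with all 24 libraries, 2013 without control library 3, 1979 and 1952 without treated library 2 or 3 and 4257 without treated library 1. The difference between the lines at 1 h went from 60 to 207 with no filter, 100 with DESeq2 and 131 with all 24 libraries. It was 32 to 43 without any 1 of the 6 WT libraries or 3 Kl controls, and 97, 119 and 63 without Kl treated library 1, 2 or 3. The difference at 24 h went from 2515 to 673 with all 24 libraries. Between the lines at 24 h 6757 became 4183, and for 24 h over 1 h controls 4475 became 2229 in WT and 3809 became 2293 in Kl, all with all 24 libraries. In WT at 1 h 0 calls became 5 with the replicate block and 1 with library size only, no filter or DESeq2. Library size alone changed the split of 24 h over 1 h controls in WT from 2211 higher and 2264 lower to 2728 and 1812. DESeq2 gave no adjusted p for 8 of 9 members in WT at 24 h. Replicate numbers outside Kl at 1 h did not pair the libraries by the 0.1 rule, although in WT at 1 h all 3 correlated best with their own number. Members of low count, MYCN and MYCL, had 90 to 319 counts per library.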

Other observations

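Of 12 other factors that bind E-box or related sites, 5 rose and 1 fell after FGF23 at 24 h in Kl cells, 50% called against 19.3% of all genes. In WT cells edgeR called 0 at either time, with 2 at 1 h and 1 at 24 h at an unadjusted p under 0.05, and 0 in every alternative. BHLHE40 rose by 0.97 ± 0.06 and BHLHE41, its relative in the clock, by 0.46 ± 0.11. HES1 and HEY1, repressors known as NOTCH targets, rose by 0.50 ± 0.06 and 0.37 ± 0.04, and the clock factor NPAS2 by 0.36 ± 0.09. USF1 fell by 0.28 ± 0.07. The difference between the lines was 1.00 ± 0.07 for BHLHE40 (edgeR adjusted p = 3.71e-14).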
